A study of Homo sapiens with 6 samples.

Results

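The respiratory chain of human cells is built from subunits encoded by 2 genomes, and the transcripts of both were compared between HCT116 cells lacking DNA methyltransferases and their parent line. The set held 103 protein-coding genes of the 57820 human genes in the deposited table. Of these, 13 are the mitochondrially encoded subunit genes (symbols starting MT-ND, MT-CO, MT-ATP or MT-CYB). The other 90 are nuclear genes chosen by symbol (NDUFA, NDUFB, NDUFC, NDUFS, NDUFV, SDHA to SDHD, UQCR, COX4 to COX8 and ATP5), without the NDUFAF assembly factors. The rule used names and no measured value. The mitochondrial genes fell into complex I (7), III (1), IV (3) and V (2), and the nuclear genes into complex I (40), II (4), III (9), IV (17) and V (20). NDUFA4 is counted here under complex I by its name, although its product is now placed in complex IV.

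HCT116 is an established colorectal cancer cell line. WT is the parental line and DKO1 is the line derived from it with DNMT1, which copies DNA methylation at replication, and DNMT3B, which adds it to unmethylated sites, knocked out, with 3 samples each. The labels name the 2 lines and replicates 1 to 3 of each, with no sign of separate cultures, so a p-value refers to the variation among these libraries and that may be technical alone. DKO1 is 1 derived line, so the loss of both genes and other differences between the lines cannot be told apart. Cultures of both lines were kept in serum-containing McCoy's 5A, and TRIzol-extracted RNA was made into stranded mRNA libraries. DNMT1 stood at 245, 250 and 231 TPM in WT and at 31.1, 30.8 and 46.8 TPM in DKO1, and DNMT3B at 8.22, 7.09 and 6.77 against 4.86, 4.85 and 3.56 TPM. Both were lower in every DKO1 sample. DNMT3B kept 4.42 of 7.36 TPM on average, and its fall (log2 fold change -0.63, limma adjusted p = 0.0300) was not called on the scale of nuclear genes or without WT replicate 1, 2 or 3 or DKO1 replicate 1, so its level alone does not show a knockout.

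The values are TPM, a relative transcript abundance that is corrected for gene length and sums to the same total in every sample. They keep no record of sequencing depth, so depth is unknown here and no counting interval is given. A gene was tested if it reached 1 TPM in at least 3 of the 6 samples, with limma on log2(TPM + 1), and was called at a Benjamini-Hochberg adjusted p below 0.05 over all 13604 tested genes. Log2 fold changes are DKO1 minus WT on that scale, which understates the change of low genes. All 13 mitochondrial genes and 80 of the 90 nuclear genes were tested. In bulk RNA, fewer cells of a type and less RNA per cell cannot be told apart. Of 10 epithelial markers 9 were tested, of which CDH1 (log2 fold change 1.45) and ESRP1 (0.61) were called higher and CDX2 (-0.49) lower. CDX2 stood at 1.38, 1.22 and 1.32 TPM in WT and at 0.71, 0.52 and 0.7 TPM in DKO1. It thus passed the filter through its WT values alone. ESRP1 was not called under median-ratio scaling (limma adjusted p = 0.0829), and leaving out WT replicate 2 or 3 ended both its call and that of CDX2, which was also lost without WT replicate 1 (adjusted p = 0.0600 to 0.102). The 9 genes had a median log2 fold change of 0.40, although the summed TPM of the 10 was lower on average in DKO1, with overlapping groups. None of 8 fibroblast or 8 blood cell markers passed the filter. The summed epithelial markers ran from 989 to 1242 TPM in WT and from 780 to 1020 TPM in DKO1, the fibroblast markers from 1.18 to 1.86 against 3.53 to 3.93 TPM, and the blood cell markers from 0.24 to 0.64 against 1.3 to 1.5 TPM. Of 8 muscle markers 1 was tested, and they summed to between 6.67 and 15.2 TPM in WT and between 4.65 and 17.8 TPM in DKO1. The part of these markers in the results below was not tested.

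In oxidative phosphorylation, complexes I to IV pass electrons from NADH and succinate to oxygen and complexes I, III and IV pump protons, while complex V (ATP synthase) uses the proton gradient to make ATP. The core subunits of complexes I, III, IV and V that stayed in the mitochondrial genome are transcribed there from long polycistronic RNAs and translated on mitochondrial ribosomes. All other subunits, and complex II as a whole, are made from nuclear genes and imported. Several complex IV subunits exist in a form made in most tissues and a form restricted to muscle, lung, testis or other tissues.

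The largest changes among the 103 genes were in 2 such restricted forms, COX7B2 and COX8C. The 250 bases before their RefSeq start sites (build GRCh38.p14) are shown with those of their ubiquitous partners COX7B and COX8A, because the study concerns DNA methylation and its usual target in human cells is the CpG dinucleotide. Each is written 5′ to 3′ on the strand of the gene, in lower case with every CpG in capitals. The COX7B2 window is chr4:46909246-46909495 on the minus strand, with 5 CpGs. The COX8C window is chr14:93346932-93347181 on the plus strand, with 8. The COX7B window is chrX:77899218-77899467 on the plus strand, with 13, and the COX8A window is chr11:63974370-63974619 on the plus strand, with 16.
COX7B2: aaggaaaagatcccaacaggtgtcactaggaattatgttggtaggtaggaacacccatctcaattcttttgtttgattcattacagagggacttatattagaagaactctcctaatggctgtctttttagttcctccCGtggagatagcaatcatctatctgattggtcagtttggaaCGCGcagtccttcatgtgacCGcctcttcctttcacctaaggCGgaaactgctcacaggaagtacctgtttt
COX8C: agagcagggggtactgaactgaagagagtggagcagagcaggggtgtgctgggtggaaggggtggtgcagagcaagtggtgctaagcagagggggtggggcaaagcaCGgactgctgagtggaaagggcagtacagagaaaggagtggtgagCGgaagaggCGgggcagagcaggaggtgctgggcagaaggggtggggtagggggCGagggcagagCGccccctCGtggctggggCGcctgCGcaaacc
COX7B: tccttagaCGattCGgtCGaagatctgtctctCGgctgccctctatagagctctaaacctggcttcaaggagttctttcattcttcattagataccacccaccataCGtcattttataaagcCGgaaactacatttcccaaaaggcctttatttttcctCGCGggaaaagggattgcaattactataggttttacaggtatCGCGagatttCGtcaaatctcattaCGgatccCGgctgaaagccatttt
COX8A: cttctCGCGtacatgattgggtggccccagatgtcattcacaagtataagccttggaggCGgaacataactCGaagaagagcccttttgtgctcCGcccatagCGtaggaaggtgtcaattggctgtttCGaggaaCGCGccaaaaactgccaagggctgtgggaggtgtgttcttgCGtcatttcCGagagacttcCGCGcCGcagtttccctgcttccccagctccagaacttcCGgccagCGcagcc
In these 2 pairs the restricted form held fewer CpGs than its partner. Over windows of 300 bases, COX6A2, which was listed at 0 TPM in every sample, held 5 and its partner COX6A1 held 22. In another pair, over windows of the same length, COX6B2 held 31 and its partner COX6B1 held 16. Methylation of these windows was not analysed here.

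The libraries numbered 2 stood apart. Across the 80 tested nuclear members, the deviation of a sample from its group mean correlated with transcript GC content at -0.66 in WT replicate 2 and -0.70 in DKO1 replicate 2. The same correlation was 0.58 and 0.36 in WT replicates 1 and 3 and 0.51 and 0.61 in DKO1 replicates 1 and 3. Over the 13225 tested genes with a GC value it was 0.39, -0.48 and 0.17 in WT replicates 1 to 3 and 0.54, -0.55 and 0.16 in DKO1 replicates 1 to 3. These are descriptions across genes of the same libraries. GC-rich subunits were thus low in both samples numbered 2. COX4I1, the common form of the largest nuclear subunit of complex IV, stood at 148, 72.4 and 130 TPM in WT and at 135, 48.9 and 203 TPM in DKO1. The transcript of COX4I1 has a GC content of 47.87%, so this gene was low in the samples numbered 2 without being among the GC-rich subunits. UQCRC1, a core protein of complex III, is among them with 59.55%. It stood at 45.3, 28.9 and 44.3 against 56.1, 22.1 and 67.1 TPM. Replicate 2 was the lowest of its group for both genes, and the groups overlapped. The 27 tested nuclear members with the highest GC content (49.9% to 63.9%) had a median WT level of 47.6 TPM, against 206 TPM for the 26 in the middle and 248 TPM for the 27 with the lowest. ATP5F1D, a rotor subunit of ATP synthase, stood at 0.50 to 1.63 TPM over all samples, and NDUFS7, a core iron-sulphur subunit of complex I, at 0.60 to 0.84 TPM. Low listed values of such genes were seen in both genotypes.

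**Figure D1:**
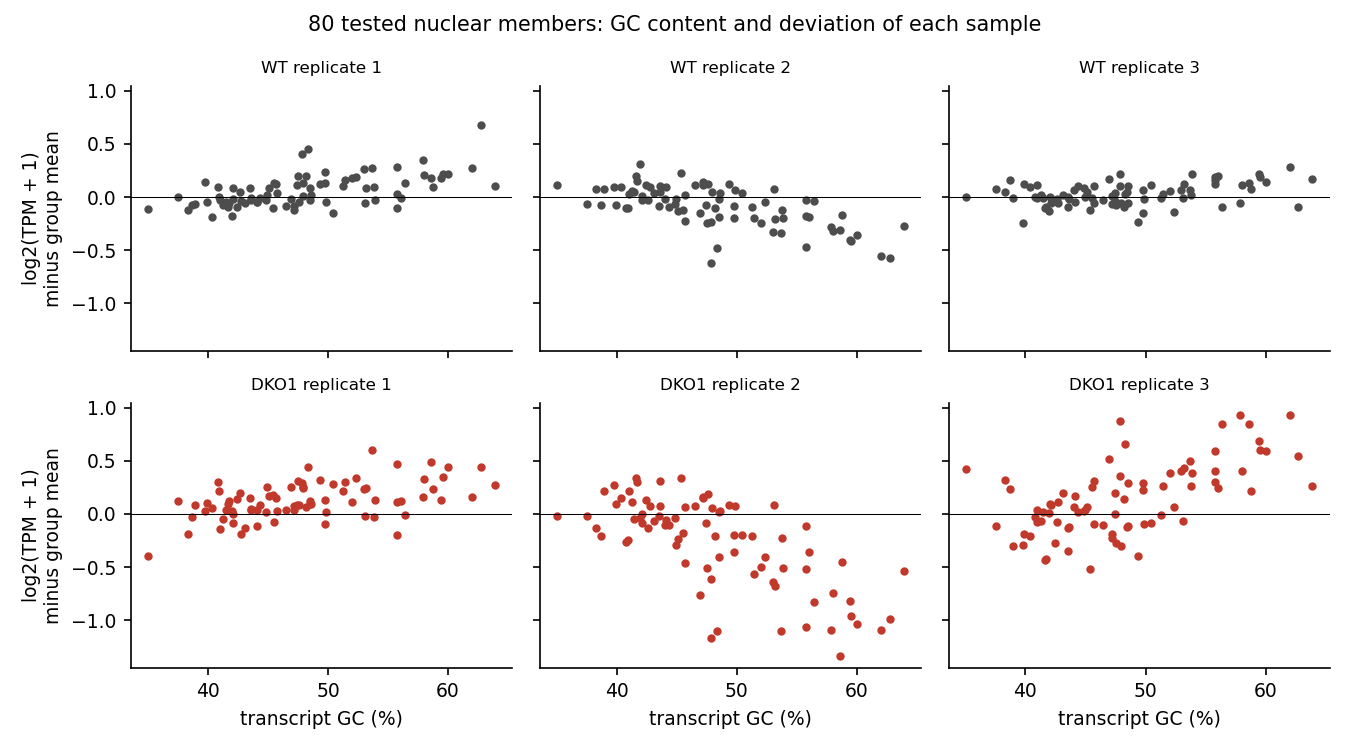
Transcript GC content in percent (x axis) against the deviation of log2(TPM + 1) from the group mean (y axis) for the 80 tested nuclear members, 1 panel a sample, WT grey and DKO1 red. The points slope down in replicate 2 of both genotypes (correlation -0.66 and -0.70) and up in the other 4 samples (0.36 to 0.61).

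The mitochondrial mRNAs took a larger share of all TPM in DKO1. The share of the nuclear subunit mRNAs in all TPM overlapped between the genotypes, but their share of nuclear gene TPM did not. The 13 mitochondrial genes summed to 19.0%, 18.8% and 19.1% of all TPM in WT and to 25.7%, 26.4% and 20.0% in DKO1 (mean 19.0% ± 0.158 against 24.0% ± 3.47, SD, n = 3). All DKO1 samples lay above all WT samples, with DKO1 replicate 3 close to WT. The 90 nuclear genes summed to 1.98%, 1.94% and 2.00% in WT and to 2.12%, 1.89% and 2.02% in DKO1, and the groups overlapped. With nuclear gene TPM as the total they made up 2.52%, 2.46% and 2.55% in WT. In DKO1 that share was 2.97%, 2.68% and 2.60%, so every DKO1 sample lay above every WT sample. The ratio of the mitochondrial to the nuclear sum was 9.61, 9.71 and 9.53 in WT and 12.1, 14.0 and 9.93 in DKO1. The groups did not overlap, and with 3 against 3 samples an exact two-sided permutation test cannot go below 0.10, and no other test of this ratio was run. The mean difference in the log2 ratio was 0.31, against SDs of 0.014 in WT and 0.25 in DKO1, and it was 0.19 without DKO1 replicate 2.

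A large part of the mitochondrial sum came from short genes. MT-ATP8, an ATP synthase subunit whose gene overlaps MT-ATP6, took between 22.8% and 34.9% of the 13-gene sum. TPM divides by its short length, and reads from the overlap can be assigned to either gene. It stood at 52348, 58405 and 52628 TPM in WT and at 65502, 92009 and 45612 TPM in DKO1, so the groups overlapped. MT-ND4L, a small complex I subunit overlapping MT-ND4, behaved alike, with 18216, 18902 and 17268 TPM against 26314, 29936 and 14994 TPM. Without these 2 genes the mitochondrial share was 12.0%, 11.1% and 12.1% in WT and 16.5%, 14.2% and 14.0% in DKO1. DKO1 replicate 3 then lay next to DKO1 replicate 2 and no longer next to WT.

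Spike-in rows, 77 in number and not described in the labels, moved with the same samples. They held 1.42%, 1.47% and 1.28% of all TPM in WT and 1.98%, 2.01% and 1.30% in DKO1. Against the spike-in sum, the mitochondrial genes stood at 13.4, 12.8 and 14.9 in WT and at 12.9, 13.1 and 15.4 in DKO1, so on that scale the groups overlapped. On the same scale the nuclear members stood at 1.40, 1.32 and 1.56 in WT and at 1.07, 0.937 and 1.55 in DKO1. The groups overlapped there too, with DKO1 replicates 1 and 2 the lowest. The amount added to each sample is not given in the sources used here, and its part in the difference was not tested. The ratio of mitochondrial to nuclear members does not depend on the spike-in rows or on the total.

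**Figure D2:**
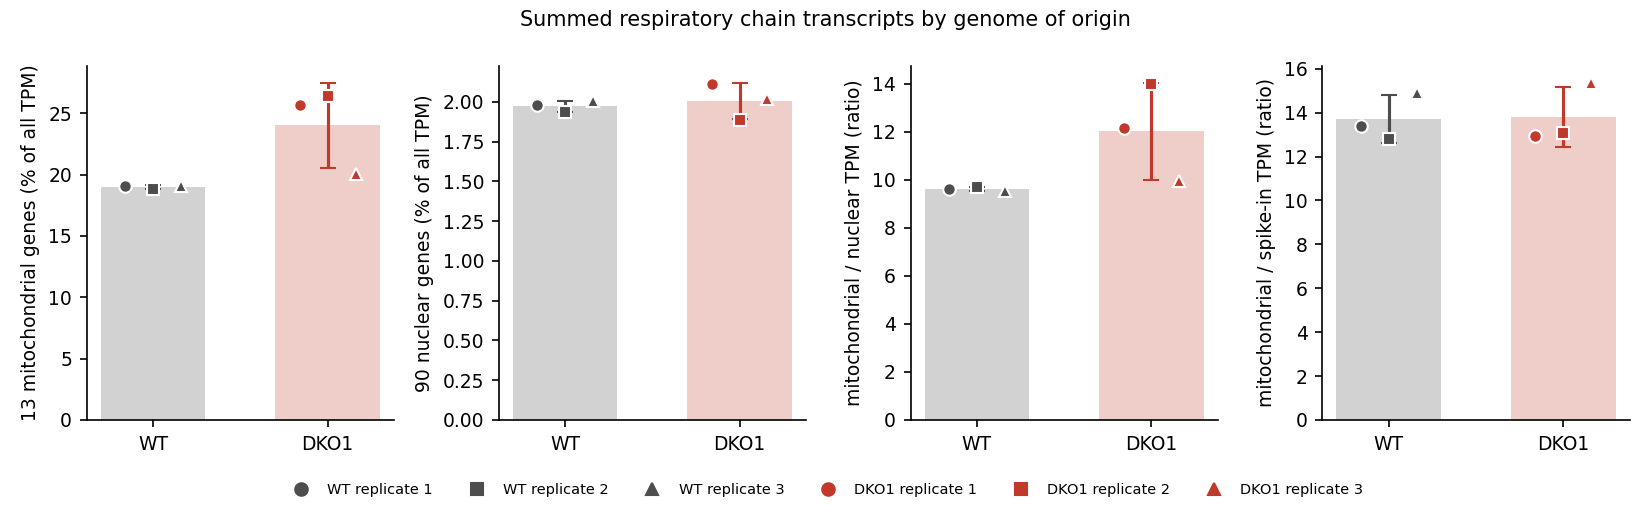
Summed TPM of the 13 mitochondrial and 90 nuclear genes as percent of all TPM, their ratio, and the ratio of the mitochondrial to the spike-in sum (y axes from 0), with points for samples, bars for means and error bars for SDs (n = 3). The mitochondrial share was 18.8% to 19.1% in WT and 20.0% to 26.4% in DKO1, the nuclear share overlapped, and the ratio to the spike-in rows overlapped.

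Gene by gene, 12 of the 13 mitochondrial mRNAs had a positive log2 fold change and 2 were called higher, both of complex I. None was called lower by limma. Over all tested genes 18.8% were called higher and 9.6% lower. At an unadjusted limma p under 0.05 the 13 gave 5 higher and 0 lower, against 3417 and 2108 of all 13604 tested genes. In 8 of the 13 all DKO1 values lay above all WT values, as they did in 27.5% of all tested genes. The median log2 fold change of the 13 was 0.32, against 0.07 over all tested genes. It was 0.17 under median-ratio scaling and with the GC correction, where all tested genes stood at -0.05 and -0.08. Under quantile normalization it was 0.04 with 7 of 13 positive, against -0.07 over all tested genes. That scaling gives genes of equal rank the same value, so it can hide a change shared by the most abundant genes. MT-ND2, MT-CO3 and MT-ATP8 were unchanged there apart from rounding. Mitochondrial genes share long precursor RNAs and share these 6 libraries, so they are not independent.

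MT-ND3, a small membrane subunit at the hinge between the arms of complex I, stood at 8857, 9767 and 9411 TPM in WT and at 16485, 16940 and 12066 TPM in DKO1. Every DKO1 value exceeded every WT value (1.62-fold on the means, log2 fold change 0.68, SE 0.17, limma adjusted p = 0.0235). MT-ND5, one of the large proton-pumping subunits, rose from 2913, 2769 and 3108 TPM to 4719, 4650 and 3500 TPM (1.46-fold, log2 fold change 0.54, SE 0.15, limma adjusted p = 0.0351). Both calls depended on single libraries and on the processing. Neither gene was called under median-ratio scaling (limma adjusted p = 0.110 for MT-ND3 and 0.187 for MT-ND5) or with no filter (0.0715 and 0.0756), and MT-ND5 was not called with the GC correction (0.136). Without WT replicate 1, 2 or 3 or DKO1 replicate 1 neither gene was called (limma adjusted p = 0.0672 to 0.109 for MT-ND3 and 0.0920 to 0.126 for MT-ND5), and MT-ND5 was also not called without DKO1 replicate 2 (limma adjusted p = 0.0646). Without DKO1 replicate 3, 6 of the 13 were called higher, and with the replicate number as a block 3 were, MT-ND4 being added (limma adjusted p = 0.0461). Over all tested genes 19.2% and 22.4% were called higher in those fits.

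Within the 13-gene sum, which does not depend on how the samples were scaled, the same genes stood out. MT-ND3 made up 4.65%, 5.19% and 4.93% of the sum in WT and 6.43%, 6.42% and 6.02% in DKO1. MT-ND5 made up 1.53%, 1.47% and 1.63% against 1.84%, 1.76% and 1.75%. For these 2 genes the groups did not overlap, and for the other 11 they did. Whether the shares of other genes differed was not tested.

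Of the other mitochondrial genes of complex I, 3 were higher in every DKO1 sample without being called. MT-ND1 stood at 2582, 2547 and 2754 TPM in WT and at 3863, 3383 and 2985 TPM in DKO1 (log2 fold change 0.37, limma adjusted p = 0.0769). MT-ND2 stood at 8624, 9062 and 9794 against 13320, 12733 and 10092 TPM (limma adjusted p = 0.109). MT-ND4 stood at 12011, 11488 and 12168 against 17393, 16178 and 13632 TPM (limma adjusted p = 0.0879). Groups did not overlap for these 3 genes, which encode membrane subunits of complex I.

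MT-ND6 was the exception. It is the sole protein gene transcribed from the light strand of mitochondrial DNA, and its mRNA is described as lacking a poly(A) tail. It stood at 1101, 1128 and 973 TPM in WT and at 798, 929 and 1291 TPM in DKO1, with log2 fold change -0.11 (SE 0.18, limma adjusted p = 0.694). DKO1 replicates 1 and 2 lay below all WT samples and replicate 3 above them. The sign turned positive without DKO1 replicate 1 (0.04) and under quantile normalization (0.04). Whether counting used the strand is not stated in the labels, so reads of MT-ND6 and of RNA from the opposite strand cannot be told apart.

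Outside complex I no mitochondrial mRNA was called by limma, nor did any pass an unadjusted p of 0.05. MT-CYB, the cytochrome b subunit of complex III, stood at 5230, 4396 and 5315 TPM in WT and at 7361, 5690 and 5655 TPM in DKO1 (limma adjusted p = 0.178). MT-CO1, the catalytic subunit of complex IV, stood at 15943, 13516 and 14927 against 18677, 16247 and 17498 TPM (log2 fold change 0.24, limma adjusted p = 0.261). For both, all DKO1 values exceeded all WT values by less than the test required. MT-CO2, which takes electrons from cytochrome c, stood at 25582, 21586 and 24537 against 31007, 24043 and 28181 TPM. MT-CO3, the remaining core subunit of complex IV, stood at 16795, 14842 and 17275 against 21974, 16968 and 21877 TPM. In both genes DKO1 replicate 2 lay among the WT values. MT-ATP6, the proton channel subunit of ATP synthase, stood at 20227, 19656 and 20895 against 29130, 24024 and 22922 TPM (log2 fold change 0.32, limma adjusted p = 0.182). Its groups did not overlap. Under quantile normalization the log2 fold changes of MT-CO1, MT-CO2 and MT-ATP6 were -0.001, -0.08 and -0.04. That scaling can hide a change shared by the most abundant genes, so these signs show no direction. MT-CYB was called higher there (0.38, limma adjusted p = 0.0385).

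**Figure D3:**
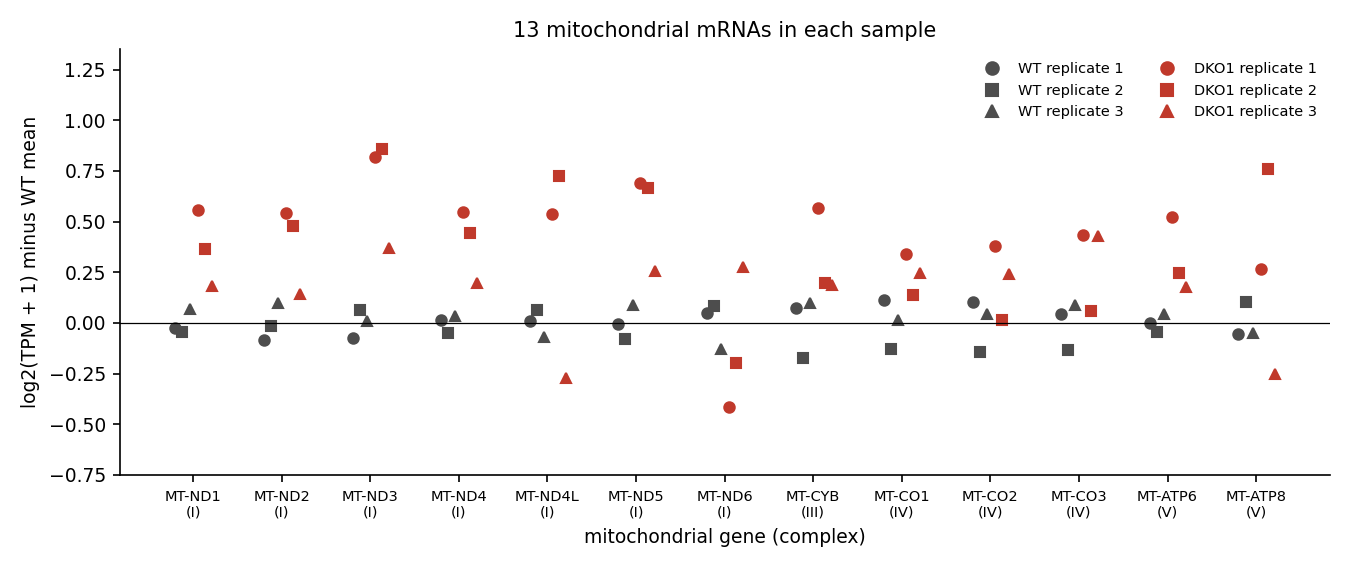
Log2(TPM + 1) minus the WT mean (y axis) for each of the 13 mitochondrial genes (x axis, complex in brackets), with a point for each WT (grey) and DKO1 (red) sample. MT-ND3 and MT-ND5, the 2 called genes, lie above 0 in all DKO1 samples, MT-ATP8 and MT-ND4L are high in DKO1 replicate 2, MT-ND6 lies below 0 in DKO1 replicates 1 and 2, and DKO1 replicate 3 is the lowest DKO1 sample for most complex I genes.

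The 2 mitochondrial ribosomal RNAs, which are not subunit genes, were also called higher. MT-RNR1 stood at 1412, 1274 and 1830 TPM in WT and at 2437, 1960 and 2899 TPM in DKO1 (log2 fold change 0.69, SE 0.19, limma adjusted p = 0.0341). MT-RNR2 stood at 6525, 7419 and 7645 against 10068, 11089 and 9284 TPM (log2 fold change 0.50, SE 0.14, limma adjusted p = 0.0356). In both, every DKO1 value exceeded every WT value, DKO1 replicate 3 included. MT-RNR1 was not called without WT replicate 1 or 2 or DKO1 replicate 1 or 3 (limma adjusted p = 0.0620 to 0.120), and MT-RNR2 was called without DKO1 replicate 3 but not without any other library (limma adjusted p = 0.0543 to 0.130). Neither was called with no filter (limma adjusted p = 0.0695 for MT-RNR1 and 0.0980 for MT-RNR2) or with the GC correction alone (0.0965 and 0.0857). MT-RNR2 was also not called under median-ratio scaling (limma adjusted p = 0.215) or quantile normalization (0.200). All 22 mitochondrial tRNA genes were listed at 0 in every sample. Nuclear copies of mitochondrial genes, which can share reads with the originals, were examined too, and of 402 rows 9 were tested. All 9 of these had a positive log2 fold change, as did 7571 of all 13604 tested genes. Of the 9, 3 were called higher, against 18.8% of all tested genes. The most abundant copy, MTCO1P12, stood at 953, 914 and 912 TPM in WT and at 1230, 1113 and 1053 TPM in DKO1 (limma adjusted p = 0.0850).

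Of the 80 tested nuclear members, 3 were called higher (3.75%, against 18.8% of all tested genes) and none lower (against 9.6%). These were COX7B2, COX8C and ATP5IF1. At an unadjusted limma p under 0.05, 9 were higher and 3 lower, against 3417 and 2108 of all 13604 tested genes. The median log2 fold change of the 80 was 0.04, against 0.07 over all tested genes, and 45 of the 80 were positive. It turned to -0.01 without WT replicate 2, DKO1 replicate 1 or DKO1 replicate 3 and was 0.15 without DKO1 replicate 2. All DKO1 values lay above all WT values in 12 nuclear members (15.0%, against 27.5% of all tested genes) and below them in 6 (7.5%, against 17.8%). On the scale of nuclear genes, mitochondrial and spike-in rows were removed before the total was restored. There 6 nuclear members were called higher (23.1% of all tested genes were) and none lower (7.65% were). At an unadjusted limma p under 0.05, 1 member was lower there, against 1604 of all 13589 tested genes. The median was 0.15 against 0.17 over all tested genes. Added on that scale were ATP5MG, NDUFA10 and COX7A2L. With the replicate number as a block, 7 were called higher (22.4% of all tested genes were) and 5 lower (13.4% were). With log2 values corrected for GC content within each sample, 2 were called higher and 14 lower, where 17.0% and 20.4% of all tested genes were. Without both samples numbered 2 the counts were 5 and 2, where 14.9% and 3.62% of all tested genes were called. The number of nuclear members called lower thus depended on the setting, while COX7B2 and COX8C were called higher in every setting run.

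**Figure D4:**
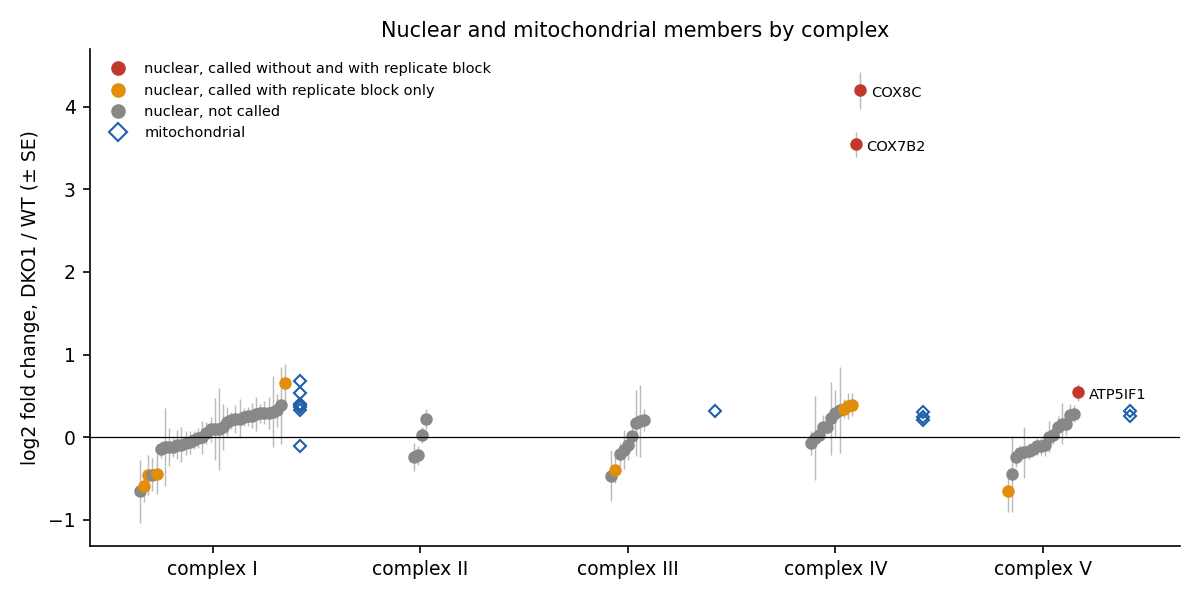
Log2 fold change of DKO1 over WT with its SE (y axis) for the 80 tested nuclear members by complex (x axis, circles), with the mitochondrial members of the same complex as open diamonds. COX8C (4.20) and COX7B2 (3.54) stand far above the other nuclear members, ATP5IF1 (0.54) is the third called gene, and 9 genes were called with the replicate block alone.

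Complex IV, cytochrome c oxidase, held the 2 large changes. COX7B2, a paralogue of COX7B that is known from testis and germ cells, stood at 11.3, 16.1 and 11.6 TPM in WT and at 164, 157 and 161 TPM in DKO1. The rise was 12.3-fold on the means (13 ± 2.71 against 160 ± 3.58, SD, n = 3), with log2 fold change 3.54, SE 0.15 and limma adjusted p = 9.31e-06. It ranged from 3.46 to 3.70 on the log2 scale when each sample was left out. Its partner COX7B stood at 150, 160 and 154 TPM in WT and at 173, 163 and 171 TPM in DKO1 (log2 fold change 0.13, limma adjusted p = 0.352). In the summed TPM of the pair, COX7B2 made up 7.0%, 9.13% and 7.01% in WT and 48.5%, 48.9% and 48.5% in DKO1, so transcripts of the restricted form nearly equalled those of the common form.

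COX8C, a form of the smallest complex IV subunit known from testis, stood at 0.41, 0.41 and 0.10 TPM in WT and at 28.7, 24.3 and 17.1 TPM in DKO1. With WT values so near 0 no ratio is given. The log2 fold change was 4.20 (SE 0.22, limma adjusted p = 1.97e-05) with 1 TPM added and 5.94 with 0.1 TPM added. The common form COX8A stood at 27.2, 19.1 and 26.2 TPM in WT and at 43.0, 11.4 and 55.0 TPM in DKO1, and its groups overlapped (limma adjusted p = 0.679). COX8C made up 1.49%, 2.10% and 0.380% of the pair in WT and 40.0%, 68.0% and 23.7% in DKO1. That share was highest in DKO1 replicate 2, where COX8A, whose transcript has a GC content of 58.6%, was lowest. The COX8C gene lies within the span of UNC79 on the same strand, and UNC79 was listed at 0.01 to 0.03 TPM in WT and 0.21 to 0.22 TPM in DKO1, far below COX8C.

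**Figure D5:**
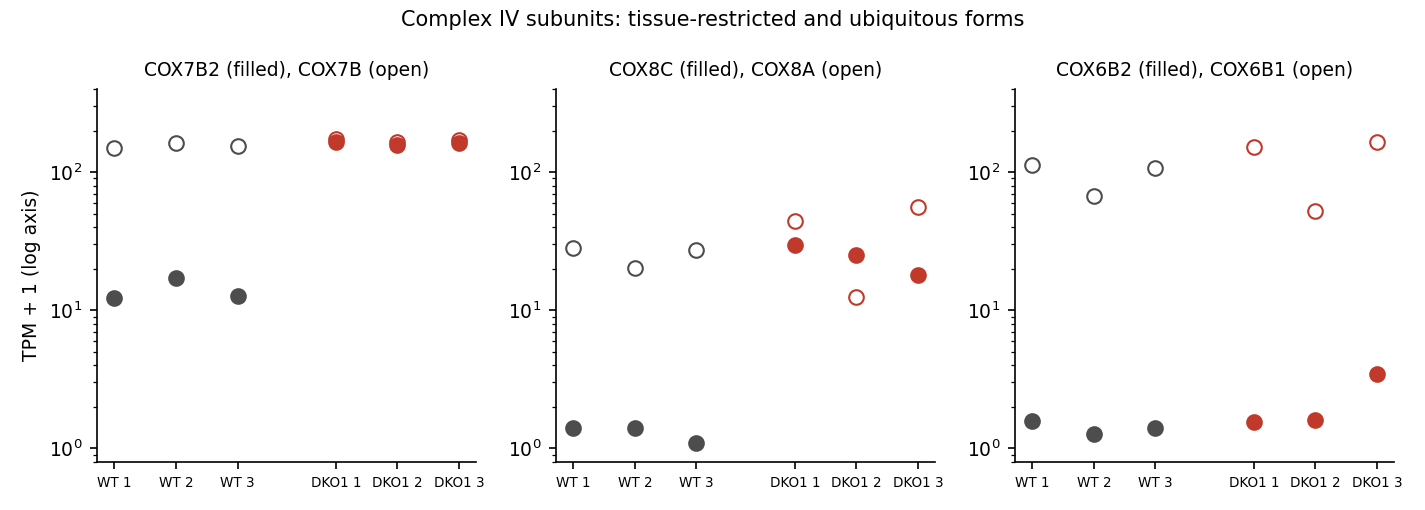
TPM + 1 on a log axis (y) in each sample (x) for 3 pairs of complex IV subunits, with the tissue-restricted form filled and the common form open, WT grey and DKO1 red. COX7B2 reaches the level of COX7B in DKO1 (157 to 164 against 163 to 173 TPM), COX8C exceeds COX8A in DKO1 replicate 2 alone, and COX6B2 stays below 2.5 TPM.

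The other restricted forms stayed at or near 0. COX6A2 and COX7A1, known from heart and skeletal muscle, were listed at 0 in all 6 samples. COX4I2, known from lung, was listed at 0 in all but WT replicate 3 (0.13 TPM), and NDUFA4L2, known as a hypoxia-responsive form, in all but DKO1 replicates 1 and 3 (0.04 and 0.12 TPM). COX6B2, known from testis, stood at 0.57, 0.27 and 0.41 TPM in WT and at 0.55, 0.60 and 2.47 TPM in DKO1, where replicate 3 alone was high. Of the 7 restricted forms, therefore, 2 passed the filter on low values, which COX8C did through its DKO1 values alone, and both were called. None of their 7 common partners was called by limma. At an unadjusted limma p under 0.05, 2 of them were higher, as were 3417 of all 13604 tested genes. COX6A1 stood at 265, 231 and 248 TPM in WT and at 397, 268 and 316 TPM in DKO1 and was called with the replicate block (limma adjusted p = 0.0326). COX7A2 stood at 506, 585 and 529 against 781, 777 and 588 TPM and was likewise called with the block (limma adjusted p = 0.0382). COX6B1, which faces the intermembrane space, stood at 112, 66.6 and 106 against 150, 51.4 and 164 TPM, and NDUFA4 at 162, 198 and 198 against 237, 253 and 197 TPM. These last 2 overlapped between groups.

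In complex IV the nuclear sum did not overlap between the genotypes, while the mitochondrial sum did. The nuclear members summed to 0.305%, 0.304% and 0.303% of all TPM in WT and to 0.391%, 0.351% and 0.341% in DKO1, without overlap. Without the restricted forms the sum was 0.304%, 0.303% and 0.302% against 0.371%, 0.332% and 0.323%, still without overlap. Its mitochondrial members summed to 5.83%, 4.99% and 5.67% against 7.17%, 5.73% and 6.76%, and the groups overlapped. The ratio of mitochondrial to nuclear TPM differed by less than its spread, at 18.1 ± 1.45 in WT and 18.2 ± 1.74 in DKO1 (SD, n = 3). In complex I the ratio was 10.9, 11.3 and 11.1 in WT and 15.9, 17.5 and 11.7 in DKO1. In complex III it was 2.27, 1.98 and 2.20 against 3.39, 3.34 and 2.37. In both of these every DKO1 sample lay above every WT sample. In complex V it was 8.48, 9.44 and 8.44 against 10.6, 14.7 and 8.05, with overlap. Whether the complexes differ from each other was not tested. Among the 13 tested nuclear members of complex IV, 11 had a positive log2 fold change and the median was 0.29. That median was 0.15 without WT replicate 2 and 0.11, 0.51 and 0.12 without DKO1 replicates 1, 2 and 3. It was 0.14 under median-ratio scaling and 0.07 with the GC correction, where all tested genes stood at -0.05 and -0.08. COX7A2L, a relative of COX7A2 found in supercomplexes of complexes III and IV, stood at 89.7, 79.4 and 84.6 TPM in WT and at 119, 106 and 98.2 TPM in DKO1 (log2 fold change 0.34, limma adjusted p = 0.0635, and 0.0394 with the replicate block). COX5A, COX6C and COX7C, abundant nuclear subunits at 467 to 693 TPM, overlapped between the groups.

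ATP5IF1 was the sole called member of ATP synthase. Its product binds the F1 part and inhibits ATP hydrolysis when the proton gradient fails. It stood at 176, 190 and 180 TPM in WT and rose to 269, 280 and 248 TPM in DKO1 (1.46-fold, log2 fold change 0.54, SE 0.10, limma adjusted p = 0.0064). Every DKO1 value exceeded every WT value, but the gene was not called under median-ratio scaling (0.40, limma adjusted p = 0.0925) or after the GC correction (0.22, limma adjusted p = 0.169). ATP5MC1, one of the genes for the membrane ring of subunit c, stood at 420, 326 and 413 TPM in WT and at 291, 159 and 313 TPM in DKO1 (log2 fold change -0.65, SE 0.26, limma adjusted p = 0.101, and 0.0127 with the replicate block). All DKO1 values lay below all WT values. The F1 subunits ATP5F1A and ATP5F1B differed less. ATP5F1A stood at 729, 716 and 679 against 655, 669 and 599 TPM, with all DKO1 values below all WT values. ATP5F1B stood at 1088, 944 and 1003 against 1278, 955 and 1090 TPM, and its groups overlapped. Of the 18 tested nuclear members of complex V, 8 had a positive log2 fold change, and the median was -0.10. The median was positive without DKO1 replicate 2 (0.09, with 11 positive), on the scale of nuclear genes (0.01) and under quantile normalization (0.02). It was -0.06 without WT replicate 3, -0.25 under median-ratio scaling and -0.24 with the GC correction. All tested genes stood at 0.17 on the scale of nuclear genes and -0.07 under quantile normalization. They stood at -0.05 under median-ratio scaling and -0.08 with the GC correction. ATP5F1C, ATP5PD and ATP5PF, of the central shaft and the peripheral stalk, had all DKO1 values below all WT values with log2 fold changes of -0.11 to -0.19, and none was called. ATP5MG, a membrane subunit, stood at 308, 294 and 325 against 410, 373 and 349 TPM and was called on the scale of nuclear genes (limma adjusted p = 0.0487).

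No nuclear gene of complex I was called by limma among 36 tested, of which 20 had a positive log2 fold change (median 0.10). The median was 0.01 without WT replicate 2, 0.02 and 0.03 without DKO1 replicates 1 and 3, 0.15 without WT replicate 1 and 0.17 without DKO1 replicate 2. It was negative under median-ratio scaling (-0.04) and with the GC correction (-0.12), where all tested genes stood at -0.05 and -0.08. At an unadjusted limma p under 0.05, 2 of the 36 were higher and 1 lower, against 3417 and 2108 of all 13604 tested genes. With the replicate block 1 was called higher and 3 lower, where 22.4% and 13.4% of all tested genes were. NDUFC2, an accessory subunit of the membrane arm, stood at 64.3, 81.0 and 63.4 TPM in WT and at 124, 139 and 76.1 TPM in DKO1 (log2 fold change 0.65, SE 0.23, limma adjusted p = 0.0724, and 0.0157 with the block). DKO1 replicate 3 lay among the WT values. NDUFS5, an accessory subunit on the intermembrane side, stood at 491, 404 and 496 against 333, 231 and 375 TPM (log2 fold change -0.59, SE 0.19, limma adjusted p = 0.0567, and 0.00757 with the block). All of its DKO1 values lay below all WT values. NDUFS6, an accessory subunit of the matrix arm, stood at 25.1, 22.2 and 29.9 against 20.0, 12.5 and 24.1 TPM. Its groups overlapped, and within each replicate number DKO1 was the lower (limma adjusted p = 0.0481 with the block). NDUFA10, NDUFA12 and NDUFA6, accessory subunits, had all DKO1 values above all WT values with log2 fold changes of 0.21 to 0.29, which fell to 0.03, 0.02 and -0.08 with the GC correction. NDUFS1, which carries iron-sulphur clusters of the matrix arm, stood at 112, 103 and 102 against 103, 96.9 and 110 TPM and overlapped.

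Complexes II and III held no nuclear gene called by limma. At an unadjusted limma p under 0.05 complex III held 1 lower and complex II none, where 2108 of all 13604 tested genes were lower. Complex II, succinate dehydrogenase, has no mitochondrial gene and also works in the citric acid cycle. SDHA, its flavoprotein, stood at 91.6, 73.6 and 70.1 TPM in WT and at 61.6, 57.0 and 80.8 TPM in DKO1. SDHB, its iron-sulphur protein, stood at 431, 435 and 410 against 460, 440 and 399 TPM. The membrane anchors went apart, with SDHC at 153, 145 and 147 against 198, 158 and 164 TPM and SDHD at 248.7, 258 and 252 against 197, 251 and 206 TPM. Of the 4, SDHC alone had groups that did not overlap (log2 fold change 0.22, SE 0.12, limma adjusted p = 0.215). The whole complex summed to 0.0924%, 0.0912% and 0.0878% of all TPM in WT and to 0.0917%, 0.0906% and 0.0849% in DKO1. In complex III, UQCRB, which binds near the quinone site, stood at 713, 820 and 803 against 517, 540 and 736 TPM (log2 fold change -0.40, SE 0.16, limma adjusted p = 0.0990, and 0.0397 with the block). UQCRFS1, the Rieske iron-sulphur protein, stood at 143, 123.1 and 140 against 176, 133 and 163 TPM. UQCRH stood at 643, 512 and 617 against 603, 429 and 642 TPM, and UQCRHL, a near-identical copy of it that can share its reads, at 113, 103 and 128 against 97.7, 47.9 and 118 TPM.

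Nuclear members that did not pass the filter numbered 10. Of these, 9 had a mean below 1 TPM in both groups: NDUFA4L2, COX4I2, COX6A2 and COX7A1 among the restricted forms, the readthrough genes NDUFC2-KCTD14 and ATP5MF-PTCD1, ATP5MGL, and the GC-rich subunits NDUFB7 and NDUFS7. The remaining gene was COX6B2. NDUFB7 belongs to complex I in all cells, and it stood at 0.82, 0.83 and 0.19 TPM in WT and at 0.30, 0.41 and 1.16 TPM in DKO1, so low values in these libraries cannot be read as absence.

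Promoter windows of 300 bases (250 before and 50 after the RefSeq start) were matched by symbol for 71 of the 90 nuclear members and compared with 27305 windows of the same length. The nuclear members held a median of 23 CpGs, against 14 over all. NRF1, GABP and YY1 are factors known to bind promoters of respiratory genes, and 1 core of each was searched on both strands. The NRF1 core GCGCATGC stood in 18.3% of the members' windows and 3.27% of all windows, the GABP core CCGGAAGT in 14.1% and 4.43%, and the YY1 core AAGATGGC in 15.5% and 3.03%. The 3 cores differ in their letters, and a window can hold more than 1. Any of them stood in 39.4% of the members' windows and 9.94% of all. The tested members with the NRF1 core had a median log2 fold change of 0.02 against 0.10 without it, those with the GABP core 0.06 against 0.10, and those with the YY1 core 0.10 against 0.10. These medians are descriptions. Over the 300 bases, the COX7B2 window held 8 CpGs and the COX8C window 10, and 39.9% and 44.0% of all windows held fewer. Neither held any of the 3 cores, while the COX8A window held the GABP core.

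Many nuclear genes that act on mitochondrial RNA were called lower in DKO1. Of 35 tested genes for mitochondrial RNA processing and stability, 11 were called lower and none higher (13 and 0 at an unadjusted limma p under 0.05), 1 had a positive log2 fold change and the median was -0.24. Over all tested genes 9.6% were called lower, and 2108 of 13604 were lower at that unadjusted p. LRPPRC, which binds and stabilises mitochondrial mRNAs, fell from 210, 199 and 206 TPM to 78.0, 104 and 145 TPM (log2 fold change -0.95, SE 0.21, limma adjusted p = 0.0138). Its partner SLIRP stood at 594, 642 and 701 against 525, 526 and 628 TPM and was not called (limma adjusted p = 0.246). FASTKD3 and FASTKD2, RNA-binding proteins of the matrix, fell by 1.14 and 0.95 on the log2 scale. TRMT10C, a subunit of mitochondrial RNase P that cuts the precursor RNAs, fell by 1.07, and PNPT1, which degrades mitochondrial RNA, fell by 0.70. Every DKO1 value of these 5 called genes lay below every WT value. Leaving out WT replicate 1, 2 or 3 left 6, 5 and 2 of the 35 called lower, and leaving out both samples numbered 2 left 3. Over all tested genes the shares called lower fell too, to 4.44%, 3.85%, 4.04% and 3.62%. LRPPRC itself was not called without WT replicate 1 or 3 (limma adjusted p = 0.0535 and 0.0557). PNPT1 was not called without WT replicate 1, 2 or 3 (limma adjusted p = 0.0942 to 0.131). Its call was also lost on the scale of nuclear genes (0.0520), with no filter (0.0734) and with no variance trend (0.0513). FASTKD2 and TRMT10C were not called without WT replicate 3 (0.0523 and 0.0571). Without both samples numbered 2, FASTKD3 alone of these 5 genes was called (0.0280).

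Of 28 tested genes for mitochondrial DNA maintenance and transcription, 6 were called lower and 1 higher, where 9.6% and 18.8% of all tested genes were. TFAM, which packages mitochondrial DNA and starts its transcription, fell from 120, 139 and 132 TPM to 53.7, 81.3 and 76.8 TPM (log2 fold change -0.90, SE 0.17, limma adjusted p = 0.00733), and it was called in every setting run. MTERF3 fell by 1.10 and DNA2, a helicase-nuclease, by 0.73 on the log2 scale. POLRMT, the mitochondrial RNA polymerase, was listed at 0.24 to 1.34 TPM over all samples and gives no direction. The count lower was 3, 2 and 3 without WT replicates 1, 2 and 3 and 10 without DKO1 replicate 3. Over all tested genes 4.44%, 3.85%, 4.04% and 15.3% were called lower in those fits.

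The remaining lists held calls in both directions or calls lower. Their counts are to be read against the 18.8% of all tested genes called higher and the 9.6% called lower. At an unadjusted limma p under 0.05, 3417 of all 13604 tested genes were higher and 2108 lower. Of 79 tested mitochondrial ribosomal protein genes 9 were called lower, among them MRPL42 (log2 fold change -0.93) and MRPL1 (-0.75), and 3 higher, among them MRPL53 (0.68). Of 35 import and outer membrane genes 9 were called lower and none higher (11 and 2 at an unadjusted limma p under 0.05). HSPD1, the matrix chaperonin, fell from 2457, 2701 and 2488 TPM to 1086, 1309 and 1613 TPM (log2 fold change -0.95, limma adjusted p = 0.00406), and its co-chaperonin HSPE1 fell by 0.60 and the channel VDAC3 by 0.59. Of 53 assembly factors 6 were called higher, such as COA8 (0.73), and 4 lower, such as NUBPL (-0.92) and COA7 (-0.76). Of 16 electron carrier genes 1 was called, COQ3 of ubiquinone synthesis, which fell by 0.43. Of 24 genes of the citric acid cycle and pyruvate dehydrogenase 4 were called higher and 2 lower. Among those called higher were PDK2 (1.04) and PDK4 (0.91), kinases that switch off pyruvate dehydrogenase, and ACO1 (0.62), the cytosolic aconitase. PDK4 stood at 0.83, 0.73 and 0.49 TPM in WT and at 1.93, 2.5 and 2.08 TPM in DKO1. It thus passed the filter through its DKO1 values alone. With the replicate block 7 genes of that list were called higher and 3 lower (22.4% and 13.4% of all tested genes were), and with the GC correction 3 higher and 6 lower (17.0% and 20.4%). Of 15 tested nuclear regulators 3 were called lower and 1 higher. MYC fell from 140, 150 and 120 TPM to 71.1, 64.1 and 58.9 TPM (log2 fold change -1.07, limma adjusted p = 0.000762). GABPA, the DNA-binding subunit of GABP, fell by 0.92, and the coactivator PPARGC1B by 0.74. COA8, MRPL53 and ACO1 were not called under median-ratio scaling (limma adjusted p = 0.0906, 0.1105 and 0.0908). With the GC correction alone COA8 and MRPL53 were not called (0.141 and 0.266). MRPL53, COQ3, PDK2 and PDK4 were not called under quantile normalization (0.160, 0.0550, 0.0660 and 0.139), nor COQ3 on the scale of nuclear genes (0.0909). Leaving out any 1 of the WT samples reduced most counts of these lists. They fell to 1 to 3 for the ribosomal protein genes called lower and to 3 for the import genes called lower. Over all tested genes the share called lower fell too, to 3.85% to 4.44%.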

How the data were processed

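The deposited table holds TPM per gene, made by the authors, with 2 decimals. The builds hg19 and GRCh37 and the tools RSEM 1.2.21, STAR 2.5.3a, edgeR 3.12.1, Trim Galore 0.4.0 and FastQC are named, without role or order, per the submitters' processing notes. Which annotation release was used, and whether strand was used in counting, is not given in the sources used here. Each TPM column sums to the same total, so a larger share of some genes lowers all others, and depth is unknown.

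Symbols, biotypes, chromosomes and transcript GC content came from GENCODE release 29 on GRCh38, matched by gene identifier, and 90.5% of the human rows had a symbol. GC content is that of the transcript with the longest coding sequence. Promoters came from RefSeq on GRCh38.p14, matched by symbol. The fit was limma 3.58.1 in R 4.3.3 on log2(TPM + 1), genotype being the sole term and the variance trend on, for human genes reaching 1 TPM in 3 or more of 6 samples. The code was tested on simulated data. Sums, shares and ratios of TPM were computed in Python 3.11.15 and carry no test.

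The members and the lists were chosen with earlier results of these data known, so none of the lists is independent evidence. Named genes are all 13 mitochondrial members, the called nuclear members (up to 10 in each direction), all of complex II, every tissue-restricted form and its partner, up to 3 called genes of each other list with the largest change, and POLRMT, TFAM, LRPPRC, SLIRP and PNPT1. Other members were named after their values were seen, for a call under another setting, groups that did not overlap, or as examples of abundant or GC-rich subunits. Some results that would be named are not reported here.

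Deviations from the group means correlated between same-numbered WT and DKO1 samples at 0.35, 0.57 and 0.27 over tested genes. The numbers were therefore taken to pair the samples, as a pattern in the data and not from the labels, and a fit with the replicate number as a block was run beside the one without it.

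Alternatives were other scalings, no filter, a filter at a mean of 5 TPM, a pseudocount of 0.1, no variance trend, the replicate block, and leaving out each sample. The GC correction, alone and with the block, the block on nuclear genes alone, leaving out both samples numbered 2, leaving out MT-ATP8 and MT-ND4L, and nuclear TPM as the total were added after seeing the data.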

Additional observations from a re-analysis of the deposited data

How the results depend on the processing

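Several counts moved with the processing, and the cause was not tested except where samples or genes were fewer. Mitochondrial members called higher numbered 0 under median-ratio scaling and with no filter, 4 under quantile normalization, 1 with the GC correction with or without the block, 0 without both samples numbered 2, and 0 to 6 when each sample was left out. Nuclear members called higher numbered 6 on the scale of nuclear genes, 10 under quantile normalization, 7 with the replicate block, 5 with the block and GC correction, 17 with the block on nuclear genes alone, 5 without both samples numbered 2, and 3 to 11 when each sample was left out. Nuclear members called lower numbered 5 under median-ratio scaling, 5 with the replicate block, 14 with the GC correction, 19 with that correction and the block, 2 with the block on nuclear genes alone, 2 without both samples numbered 2, and 0 to 5 when each sample was left out. Over all tested genes the shares called lower were 15.4%, 13.4%, 20.4% and 25.8% under median-ratio scaling, the block, the GC correction and both, against 6.25%, 6.25%, 17.5% and 23.8% of the nuclear members. The block changed no other call of a named gene. The difference in the nuclear share of TPM ranged from -0.022 (without DKO1 replicate 1) to 0.092 percentage points when each sample was left out, and was 0.248 with nuclear gene TPM as the total. The log2 ratio of the genomes differed by 0.19 to 0.44 when each sample was left out, 0.22 with medians and 0.32 without MT-ATP8 and MT-ND4L. Scaling moved the median of all tested genes by -0.13 (median-ratio), -0.14 (quantile) and -0.15 (GC correction), and the share of higher among all calls was 66.2%, against 49.8%, 48.4% and 45.5%. Relative to that median, the nuclear members stood at -0.03, and at -0.05, 0.18 and -0.05 in those settings, and the mitochondrial members at 0.25, and at 0.23, 0.10 and 0.25. Signs turned for MT-ND6 (0.036 under quantile normalization, and -0.307 to 0.04 when each sample was left out, positive without DKO1 replicate 1). Under quantile normalization, which can hide a change shared by the most abundant genes, MT-CO1 stood at -0.001, MT-CO2 at -0.078 and MT-ATP6 at -0.039. MT-CO2 stood at -0.004 with the GC correction with or without the block. SDHB stood at -0.122 under median-ratio scaling, -0.267 with the GC correction with or without the block, and -0.02 to 0.082 when each sample was left out, with -0.001 without WT replicate 3 and -0.02 without DKO1 replicate 1. POLRMT stood at -0.053 under median-ratio scaling, -0.597 under quantile normalization, -0.021 with a pseudocount of 0.1, -0.193 with the GC correction with or without the block, and -0.189 to 0.301 when each sample was left out. TPM keeps no depth, so low values have no counting limit.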
